A study of Homo sapiens with 4 samples.

Results

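The 10 genes described here are regulators of the BCL2 family, chosen by symbol from the table of 57820 genes: the survival genes BCL2, BCL2L1 and MCL1, the effector genes BAX and BAK1, and the BH3-only genes BBC3, PMAIP1, BCL2L11, BID and BIK. RNA came from an established human renal carcinoma cell line, grown in medium with 10% serum and then kept for 12 h without amino acids. Of the 4 libraries, 2 came from cells with a short hairpin RNA against GLUD1 (shGLUD1), the gene of the mitochondrial glutamate dehydrogenase, and 2 from cells with a non-targeting hairpin (shNT). Both groups were starved, so the comparison is between hairpins under starvation. The labels name no hairpin sequence or clone and state no separate cultures for the replicates. A p-value here thus reflects the spread of these 4 libraries alone, and that spread may be technical.

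The BCL2 family decides whether a cell opens its outer mitochondrial membrane, the step that releases cytochrome c and starts the intrinsic pathway of apoptosis. BAX and BAK1 form the pores, the survival proteins bind and hold them, and the BH3-only proteins, named for the one short helix they share with the rest of the family, bind the survival proteins or engage the effectors. Transcription of several BH3-only genes responds to p53 and to stress factors such as ATF4 and CHOP, whereas the abundance of MCL1 protein is also set by rapid turnover, which RNA does not show.

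Levels are TPM, transcript abundance scaled by transcript length and by the library's total. They can be compared between genes within a library, but they keep no read totals, so depth is unknown. The targeted gene overlapped between the groups on TPM and was called lower only after scaling between libraries. GLUD1 was measured at 13.5 and 19.8 TPM under the shGLUD1 label, against 18.1 and 17.4 TPM under shNT (log2 fold change -0.11, limma adjusted p = 0.631). After median-ratio rescaling its log2 fold change was -0.74 (limma adjusted p = 0.0043) and under quantile normalization -0.75 (limma adjusted p = 0.0076), and every direction below is drawn from the label. Among the 12524 genes averaging 1 TPM or more, 56.7% were called higher and 7.77% lower in shGLUD1 (limma, Benjamini-Hochberg adjusted p under 0.05), and the median gene had a log2 fold change of 0.63. Each fold change is therefore also given after median-ratio rescaling, which brought that median to 0.08 and called 27.7% of genes higher and 24.8% lower. Among markers of the renal line, VIM (891 to 3756 TPM), KRT8, CA9 and PAX8 (5.18 to 8.75 TPM) were present, while PAX2 was at 0.12 TPM or less and KRT18 at 0.66 to 1.87 TPM. NDUFA4L2, also on that list, was low at 2.29 to 2.86 TPM. Of 4 leukocyte markers, PTPRC and CD3E were at 0.05 TPM or less and CD14 at 1.24 TPM or less, but CD68, a lysosomal protein gene, was at 146 to 241 TPM. Endothelial markers (VWF, CDH5 and KDR, with PECAM1 not analysed here) were at 0.26 TPM or less. The 4 fibroblast markers summed to 54.1 and 58.9 TPM in shGLUD1, against 22.9 and 19.1 TPM in shNT, mostly COL1A2, with DCN at 0.93 TPM or less, and their part in the results was not tested. In bulk RNA, fewer cells of a type and less RNA per cell cannot be told apart.

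Promoter sequences are shown for 3 members: PMAIP1, the one member called lower on TPM, BCL2L1, the most abundant survival gene, and BAX, the most abundant of the 10. Sequences run from 250 bases before to 50 bases after the RefSeq start site on GRCh38.p14 and were found for 8 of the 10 genes. MCL1 and BIK had no sequence, so their promoters were not searched. They are PMAIP1 at chr18:59899746-59900045 (plus strand), BCL2L1 at chr20:31723914-31724213 (minus strand) and BAX at chr19:48954625-48954924 (plus strand). Capitals mark TGACGT in PMAIP1 (present as its reverse complement), CCGGAAGT in BCL2L1 and CACGTG in BAX.
PMAIP1: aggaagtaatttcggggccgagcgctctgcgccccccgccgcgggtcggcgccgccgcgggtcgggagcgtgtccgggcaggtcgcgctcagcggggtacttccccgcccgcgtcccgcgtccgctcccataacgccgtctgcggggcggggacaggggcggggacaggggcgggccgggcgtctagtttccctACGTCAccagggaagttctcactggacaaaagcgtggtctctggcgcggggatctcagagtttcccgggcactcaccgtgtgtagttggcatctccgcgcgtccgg
BCL2L1: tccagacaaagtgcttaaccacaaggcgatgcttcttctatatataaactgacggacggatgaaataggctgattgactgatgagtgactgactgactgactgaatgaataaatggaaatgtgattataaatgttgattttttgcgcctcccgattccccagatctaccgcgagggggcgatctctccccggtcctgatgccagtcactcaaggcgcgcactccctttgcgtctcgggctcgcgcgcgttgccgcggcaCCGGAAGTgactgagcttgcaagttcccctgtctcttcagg
BAX: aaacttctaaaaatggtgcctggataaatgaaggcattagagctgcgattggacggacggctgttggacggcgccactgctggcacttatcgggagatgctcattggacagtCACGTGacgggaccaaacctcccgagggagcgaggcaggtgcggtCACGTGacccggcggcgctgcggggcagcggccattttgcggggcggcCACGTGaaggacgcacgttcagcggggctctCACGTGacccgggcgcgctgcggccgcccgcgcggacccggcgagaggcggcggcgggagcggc

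TGACGT is the core of the element bound by ATF and CREB factors, CACGTG is the E-box bound by MYC and related factors, and CCGGAAGT is an ETS-type core. These 3 were added after the members' promoters had been read, and both strands were searched. For each gene 1 promoter was searched, the one nearest the annotated start of the gene. BCL2L1 had 2 listed promoters and BID 5, so their other promoters were not searched. TGACGT was in 1 of the 8 member promoters, 56 bases before the PMAIP1 start site, and in 7.98% of all 35116 promoters in the table. CACGTG was in the BAX and BBC3 promoters and in 7.26% of all promoters. BAX held 4 copies, and 0.0142% of all promoters held 4 or more. CCGGAAGT was in the BCL2L1 promoter and in 4.14% of all promoters. The composite element of ATF4 and CHOP (TGATGCAA, or more loosely TGANGCAAN) was in none of the 8 and in 0.866% and 3.21% of all promoters. Heat shock element letters were in the BAK1 promoter (GAANNTTC, 6.77% of all promoters) and in the BID promoter (TTCNNGAA, 7.74%). A match is a description of letters in this window and not a bound site.

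In shGLUD1, both measured survival genes rose, and both stood above the median gene on TPM, after rescaling and with length and GC trends removed. The effector genes rose on TPM by about as much as the median gene, and the BH3-only genes were split, with 1 higher, 1 lower and 2 that did not pass. Of the 10 genes, 8 averaged 1 TPM or more and were tested, and 5 rose and 1 fell at an adjusted p under 0.05, where 56.7% of all genes rose and 7.77% fell. The median log2 fold change was 1.53 for the 2 tested survival genes, 0.54 for the 2 effectors and 0.04 for the 4 tested BH3-only genes, against 0.63 for all genes. After rescaling, 2 members were higher, BCL2L1 and MCL1, and 2 were lower, PMAIP1 and BID, and the class medians were 0.88, -0.11 and -0.47, against 0.08 for all genes. The TPM of the groups did not overlap for 6 of the 8 tested members, 5 higher and 1 lower, where 69.9% of all genes were higher without overlap and 13.5% lower. With trends in transcript length and GC content removed, 5 members were higher and 0 lower by limma's adjusted p (1 lower at an unadjusted p under 0.05), where 60.2% of genes were higher and 6.09% lower. On each scale the share of members called higher was near the background.

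**Figure D1:**
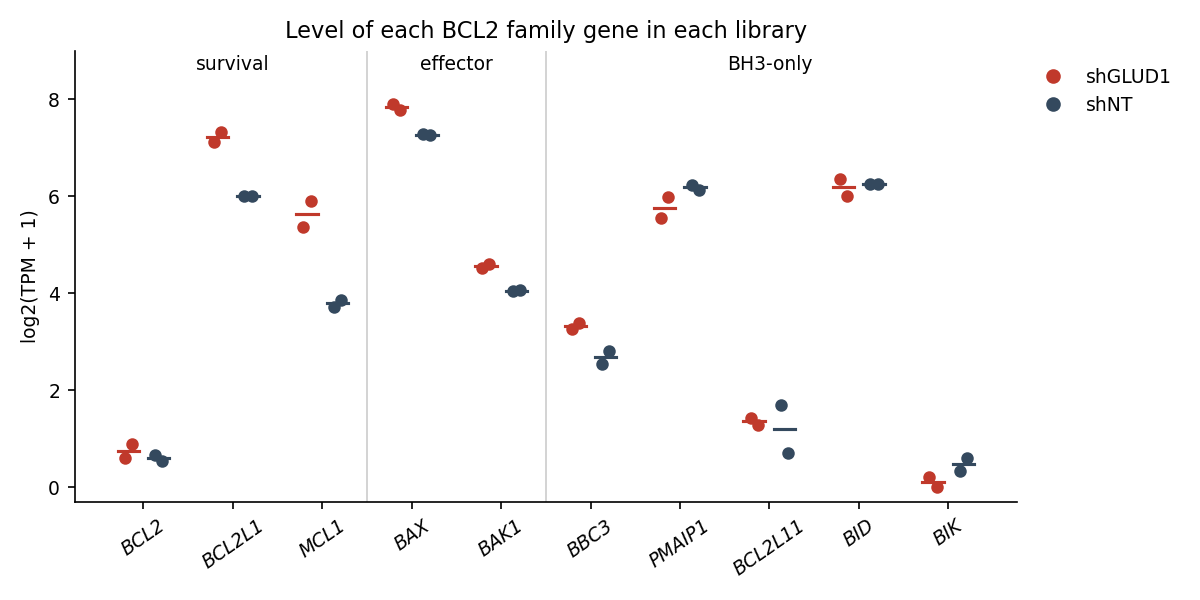
Level of each of the 10 genes in each library as log2(TPM + 1) on the vertical axis, grouped by role. Points are libraries, shGLUD1 in red to the left of shNT in dark blue, and short lines are group means. BCL2L1 and MCL1 were higher in both shGLUD1 libraries, PMAIP1 was lower in both, and BCL2 and BIK were under 1 TPM in all 4.

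The order of the 10 genes by level differed between the groups. In both shGLUD1 libraries it ran BAX, BCL2L1, BID, PMAIP1, MCL1, BAK1, BBC3, BCL2L11, BCL2 and BIK. In both shNT libraries BID and PMAIP1 came right after BAX, BCL2L1 was in place 4 and MCL1 in place 6, behind BAK1. In shGLUD1, PMAIP1 and MCL1 were within their spread of each other (45.6 and 62.2 TPM against 40.1 and 58.5 TPM). In shNT, BID and PMAIP1 were within theirs (75.2 and 75.6 TPM against 74.6 and 69.0 TPM), and so were BCL2 and BIK at the bottom. BCL2L1 and MCL1 thus held a higher place in the shGLUD1 order than in the shNT order, and BCL2 was in place 9 or 10 in every library.

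Among the survival genes, BCL2L1 was the most abundant. BCL2L1 (ENSG00000171552, GRCh38 chromosome 20, 31664452 to 31723989, minus strand) encodes BCL-XL, which holds BAX and BAK1 in check. It stood at 139 and 158 TPM in shGLUD1, against 63.0 and 63.1 TPM in shNT. Both shGLUD1 libraries were far above the controls, which were almost equal. Mean levels were 149 ± 14.1 TPM in shGLUD1 and 63.0 ± 0.13 TPM in shNT (SD, n = 2 each), and the log2 fold change came to 1.22 with an SE of 0.11 (limma adjusted p = 1.5e-05), rescaled 0.56 (SE 0.10, limma adjusted p = 0.0023). It was larger than the fold change of 81.5% of genes tested, and the call held in 12 of 12 alternatives.

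MCL1 (ENSG00000143384, chromosome 1, 150574551 to 150579738, minus strand) encodes a short-lived survival protein that binds BAK1 and the BH3-only proteins NOXA and BIM. It stood at 40.1 and 58.5 TPM in shGLUD1, against 12.1 and 13.6 TPM in shNT. The groups were far apart, and the shGLUD1 libraries also differed from each other by more than the controls did. Means were 49.3 ± 13.1 TPM in shGLUD1 and 12.8 ± 1.0 TPM in shNT (SD, n = 2 each). The log2 fold change came to 1.84 (SE 0.18, limma adjusted p = 2.3e-05), rescaled 1.21 (SE 0.15, limma adjusted p = 0.00042), larger than that of 96.7% of genes. This call also held in 12 of 12 alternatives, with log2 fold changes between 1.57 and 2.11 when each library was left out in turn.

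BCL2 (ENSG00000171791, chromosome 18, 63123346 to 63320128, minus strand), the founding survival gene, was listed at 0.51 and 0.86 TPM in shGLUD1 and at 0.57 and 0.46 TPM in shNT. The groups overlapped, and BCL2 did not pass the filter on low values. It made up 0.28% and 0.39% of the summed TPM of the 3 survival genes in shGLUD1 and 0.75% and 0.60% in shNT. BCL2L1 made up 77.4% and 72.7% of that sum in shGLUD1 and 83.2% and 81.8% in shNT, and MCL1 22.4% and 26.9% in shGLUD1 and 16.0% and 17.6% in shNT. BCL2L1 and MCL1 are known to be spliced into a long survival form and a short form that promotes death, and a value per gene sums over both.

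On TPM both effector genes rose, by less than the median gene. BAX (ENSG00000087088, chromosome 19, 48954815 to 48961798, plus strand), the cytosolic effector that inserts into the outer membrane, stood at 238 and 220.0 TPM in shGLUD1, against 154 and 153 TPM in shNT. It was the most abundant of the 10 genes in every library. Its log2 fold change came to 0.57 (SE 0.10, limma adjusted p = 0.00050), larger than that of 47.3% of genes, and its rescaled value was -0.08 (95% interval -0.37 to 0.20, limma adjusted p = 0.588). The call held in 11 of 12 alternatives, and rescaling was the one that ended it. Under quantile normalization it was 0.40 (limma adjusted p = 0.0112). With length and GC trends removed it was 0.95 (95% interval 0.73 to 1.18, limma adjusted p = 1.2e-05), above the median of 0.62 for all genes on that scale.

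BAK1 (ENSG00000030110, chromosome 6, 33572547 to 33580293, minus strand), the effector that resides in the outer membrane, stood at 21.9 and 23.1 TPM in shGLUD1, against 15.5 and 15.7 TPM in shNT. The groups did not overlap. On the log2 scale the difference was 0.50 (SE 0.15, limma adjusted p = 0.0132), rescaled -0.13 (95% interval -0.42 to 0.16, limma adjusted p = 0.422). The call was also lost under quantile normalization (-0.13, adjusted p = 0.426) and without shNT replicate 1 (0.49, 0.112) or shNT replicate 2 (0.51, 0.0959), each value with its adjusted p. A pseudogene copy, BAK1P1, was at 0.94 to 1.26 TPM over the 4 libraries, so a small part of the reads may have been shared. The ratio of BAX to BAK1, which does not depend on scaling between libraries, was 10.8 and 9.52 in shGLUD1 and 9.94 and 9.72 in shNT, and the groups overlapped.

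The BH3-only genes did not move together. PMAIP1 (ENSG00000141682, chromosome 18, 59899948 to 59904306, plus strand) encodes NOXA, which binds MCL1 and promotes its degradation. It stood at 45.6 and 62.2 TPM in shGLUD1, against 74.6 and 69.0 TPM in shNT. Both shGLUD1 libraries were below both controls, the second by a small margin. Means were 53.9 ± 11.7 TPM in shGLUD1 and 71.8 ± 4.0 TPM in shNT (SD, n = 2 each), and the log2 fold change came to -0.42 (SE 0.15, limma adjusted p = 0.0275), with 7.87% of genes below it. Rescaled, it was -1.07 (SE 0.13, limma adjusted p = 0.00032). On TPM the call was lost without shGLUD1 replicate 1 (-0.20, 0.158) or shNT replicate 1 (-0.37, 0.118), with trends in transcript length and GC content removed (-0.32, 0.0665), without a variance trend (0.108) and with no low-value filter (0.154), where the last number in each case is the limma adjusted p.

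BBC3 (ENSG00000105327, chromosome 19, 47220822 to 47232766, minus strand) encodes PUMA, a BH3-only protein that binds all survival members. It stood at 8.51 and 9.43 TPM in shGLUD1, against 4.81 and 6.02 TPM in shNT, with no overlap. On the log2 scale it was 0.64 higher (SE 0.21, limma adjusted p = 0.0199), almost the shift of the median gene, and the rescaled value was 0.06 (95% interval -0.33 to 0.46, limma adjusted p = 0.777). With length and GC trends removed it was 1.03 (limma adjusted p = 0.00079), above the median of 0.62 on that scale. The call held in 6 of 12 alternatives. It was lost when a library was left out: 0.57 without shGLUD1 replicate 2 (adjusted p = 0.0697), 0.50 without shNT replicate 1 (adjusted p = 0.229) and 0.78 without shNT replicate 2 (adjusted p = 0.0596). It was also lost after rescaling, under quantile normalization (-0.13) and with no low-value filter (adjusted p = 0.0580).

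BID (ENSG00000015475, chromosome 22, 17734138 to 17774770, minus strand), which is cleaved by caspase-8 and links death receptors to mitochondria, stood at 81.4 and 63.5 TPM in shGLUD1, against 75.2 and 75.6 TPM in shNT. The shGLUD1 libraries lay on either side of the controls. The log2 fold change of -0.07 (95% interval -0.36 to 0.22) did not pass (limma adjusted p = 0.667), and 17.7% of genes lay below it. Rescaled, it was -0.72 (SE 0.17, limma adjusted p = 0.0069). Under quantile normalization it was -0.44, with an adjusted p of 0.0632.

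BCL2L11 (ENSG00000153094, chromosome 2, 111119378 to 111168447, plus strand) encodes BIM, an activator of BAX and BAK1 that FOXO factors induce. It stood at 1.67 and 1.44 TPM in shGLUD1, against 2.24 and 0.62 TPM in shNT. The 2 controls spanned both shGLUD1 values, and the log2 fold change of 0.16 (95% interval -0.56 to 0.87, limma adjusted p = 0.688) moved between -0.34 and 0.66 with each library left out. The long non-coding gene MIR4435-2HG overlaps it on the opposite strand and stood at 116 and 119 TPM in shGLUD1 and 127 and 132 TPM in shNT. The labels do not say whether counting used strand, so reads of the pair may not be separable. BIK (ENSG00000100290, chromosome 22, 43110748 to 43129712, plus strand), a BH3-only gene of the endoplasmic reticulum, was listed at 0.15 and 0 TPM in shGLUD1 and 0.26 and 0.52 TPM in shNT, and was not tested.

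**Figure D2:**
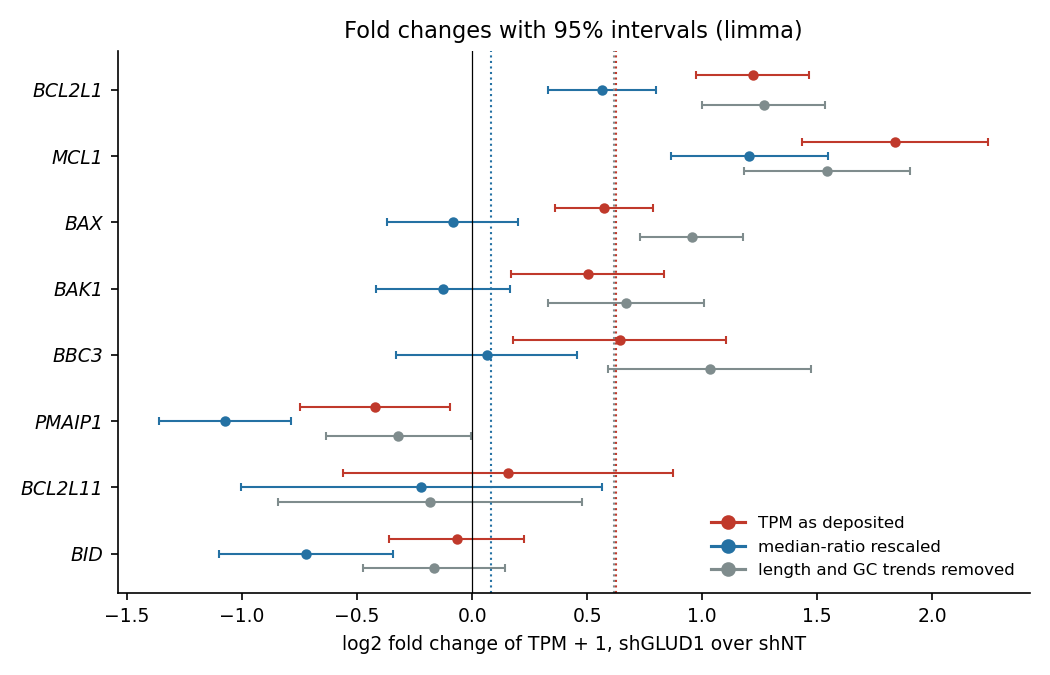
Log2 fold change of TPM + 1, shGLUD1 over shNT (horizontal axis), for the 8 members tested, with 95% limma intervals on TPM as deposited (red), after median-ratio rescaling (blue) and with length and GC trends removed (grey). Dotted lines are the medians of all genes on each scale. BCL2L1 and MCL1 lay above 0 on all 3, and PMAIP1 below 0.

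In shGLUD1, survival genes made up a larger part and BH3-only genes a smaller part of the transcripts of the 10 genes. These shares and ratios do not depend on how libraries are scaled to each other. The survival genes took 31.1% and 36.5% of the summed TPM of the 10 genes in shGLUD1, against 18.8% and 19.4% in shNT. The effector genes took 45.1% and 40.7% in shGLUD1 and 42.1% and 42.4% in shNT, and the groups overlapped. The BH3-only genes took 23.8% and 22.8% in shGLUD1, against 39.1% and 38.2% in shNT. The summed TPM of the BH3-only genes was 137 and 137 in shGLUD1, against 157 and 152 in shNT, while that of the survival genes was 179 and 218 in shGLUD1, against 75.6 and 77.2 in shNT. Within the BH3-only sum, BID and PMAIP1 together made up most of the transcripts, and BBC3 made up 6.20% and 6.91% in shGLUD1, against 3.06% and 3.97% in shNT. PMAIP1 took 7.92% and 10.4% of the TPM of all 10 genes in shGLUD1, against 18.6% and 17.4% in shNT. The survival to BH3-only ratio was 1.30 and 1.60 in shGLUD1, against 0.48 and 0.51 in shNT. BAD, a BH3-only gene outside the 10, stood at 339 and 290.1 TPM in shGLUD1, against 296 and 295 TPM in shNT. That was more than the BH3-only sum in every library, so these shares and ratios hold for the 10 genes only.

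**Figure D3:**
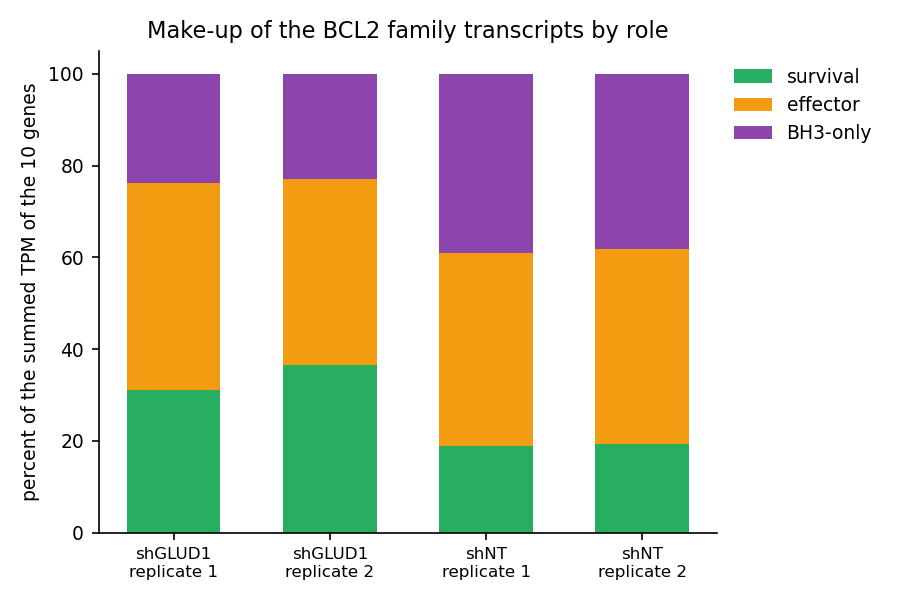
Percent of the summed TPM of the 10 genes (vertical axis, stacked bars that start at 0) taken by survival, effector and BH3-only genes, 1 bar per library. The survival share was 31.1% and 36.5% in the shGLUD1 bars and 18.8% and 19.4% in the shNT bars, and the effector share was 40.7% to 45.1% in all 4.

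The ratio of MCL1 to PMAIP1 had the largest difference of the 10 gene pairs examined. Of the tested members, MCL1 had the highest log2 fold change (1.84) and PMAIP1 the lowest (-0.42). The place of this ratio follows from those changes and adds no separate result. MCL1 and NOXA proteins bind each other as a selective pair. There were 0.88 and 0.94 MCL1 transcripts per PMAIP1 transcript in shGLUD1, against 0.16 and 0.20 in shNT, a 5.09-fold difference. With each library left out in turn the log2 difference lay between 2.21 and 2.49. MCL1 per BAK1, its main effector partner, was 1.83 and 2.53 in shGLUD1, against 0.78 and 0.86 in shNT. BCL2L1 per BAX was 0.58 and 0.72 in shGLUD1 and 0.41 and 0.41 in shNT, and BCL2L1 per BAK1 was 6.32 and 6.86 in shGLUD1 and 4.06 and 4.02 in shNT. BCL2L1 thus stayed below BAX in all 4 libraries. BCL2L1 per BID was 1.70 and 2.5 in shGLUD1, against 0.84 and 0.84 in shNT, so that BCL2L1 was the more abundant of the pair in shGLUD1 and the less abundant in shNT.

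Between the survival genes, MCL1 per BCL2L1 was 0.29 and 0.37 in shGLUD1, against 0.19 and 0.21 in shNT. Between the BH3-only genes of NOXA and PUMA, PMAIP1 per BBC3 was 5.36 and 6.59 in shGLUD1, against 15.5 and 11.5 in shNT. MCL1 per BBC3 was 4.71 and 6.21 in shGLUD1 and 2.52 and 2.25 in shNT, and BCL2L1 per BBC3 was 16.3 and 16.8 in shGLUD1 and 13.1 and 10.5 in shNT. The groups did not overlap in 9 of the 10 gene pairs, BAX to BAK1 being the exception. The pairs share genes, and the share of all possible gene pairs without overlap was not computed. Of single genes, 69.9% were higher and 13.5% lower without overlap on TPM. With 2 against 2, an exact two-sided permutation test of a single ratio cannot give a p below 0.33, so these ratios are given as values. A ratio still carries any bias tied to transcript length or GC content. With those trends removed, the log2 fold changes were 1.27 for BCL2L1, 1.54 for MCL1, 0.95 for BAX and 0.67 for BAK1. They were 1.03 for BBC3 and -0.32 for PMAIP1. BCL2L1 and MCL1 were each closer to BAX, BAK1 and BBC3 on that scale than on TPM. The class medians there were 1.40 for survival, 0.81 for effector and -0.18 for BH3-only genes, against 0.62 for all genes.

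**Figure D4:**
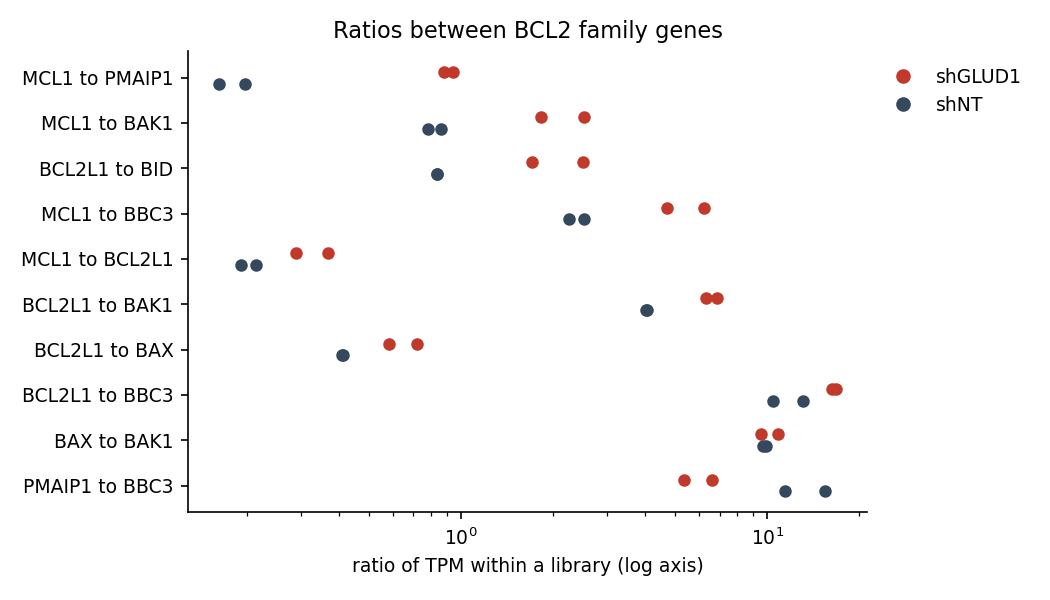
Ratio of TPM of the first to the second gene within each library (horizontal log axis) for 10 gene pairs, shGLUD1 in red above shNT in dark blue. The groups are apart in each pair except BAX to BAK1, most of all for MCL1 to PMAIP1 (0.88 and 0.94 against 0.16 and 0.20).

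Of 11 other BCL2 family genes, 5 averaged 1 TPM or more. Of these, 3 rose, 1 fell and 1 did not pass on TPM, where 56.7% of all genes rose and 7.77% fell. The share that rose was thus near that of all genes. After rescaling 0 were higher by limma, also at an unadjusted p under 0.05, and 2 were lower. Of all genes, 27.7% were then higher and 24.8% lower. The list's median log2 fold change was 0.40 on TPM and -0.25 rescaled, against 0.63 and 0.08 for all genes. BMF, a BH3-only gene whose protein is held by the cytoskeleton, stood at 1.46 and 1.45 TPM in shGLUD1, against 5.0 and 3.23 TPM in shNT (log2 fold change -1.04, limma adjusted p = 0.0051, rescaled -1.49). BCL2L13 and BCL2L2 rose on TPM (0.78 and 0.70, limma adjusted p = 0.0042 and 0.0088), and neither passed when rescaled (0.15 and 0.10). BCL2L12 rose by 0.40 (limma adjusted p = 0.0065), with a rescaled value of -0.25. BAD, a BH3-only gene controlled by phosphorylation and named after its values were seen, was more abundant than any of the 10, at 339 and 290.1 TPM in shGLUD1 and 296 and 295 TPM in shNT, with a log2 fold change of 0.09 that did not pass (limma adjusted p = 0.466, rescaled -0.57, limma adjusted p = 0.0106). With length and GC trends removed BAD was called higher (0.61, limma adjusted p = 0.00018), so its direction depended on the scale.

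Transcription factors that act on BH3-only genes were read as a list of 10, of which 8 were tested. On TPM 3 fell, 2 rose and 3 did not pass, where 7.77% of all genes fell and 56.7% rose. After rescaling 6 were lower and 1 higher, where 24.8% of all genes were lower and 27.7% higher. All 3 that fell on TPM belong to the amino acid stress response. DDIT3, which encodes CHOP, had a log2 fold change of -2.52 (rescaled -3.18), ATF3 of -1.65 (rescaled -2.27), and ATF4 of -0.94 (rescaled -1.60), with limma adjusted p of 9.6e-08, 2.3e-05 and 3.0e-05. ATF3 stood at 9.24 and 11.9 TPM in shGLUD1, against 34.95 and 34.98 TPM in shNT. FOXO3 rose (1.06, limma adjusted p = 0.0039, rescaled 0.69), and E2F1 rose on TPM (0.85, limma adjusted p = 0.00014, rescaled 0.21, not passed). PMAIP1, whose call held in 7 of 12 alternatives, was lower in the same group as ATF4, ATF3 and DDIT3. BBC3 was higher on TPM (0.64, limma adjusted p = 0.0199, call held in 6 of 12), and BCL2L11 and BID did not pass. A relation of these genes to the factors was not tested.

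Most genes listed for turnover of MCL1 and BH3-only proteins were called higher. Of 9 listed, 8 were tested, and 6 rose and 0 fell by limma on TPM, with the same counts after rescaling (0 lower at an unadjusted p under 0.05 on both), where 56.7% and 27.7% of all genes were higher, with a median log2 fold change of 1.27 (0.71 rescaled) against 0.63 (0.08) for all genes. HUWE1, the ubiquitin ligase MULE that marks MCL1 for the proteasome, stood at 23.1 and 27.1 TPM in shGLUD1, against 5.03 and 3.84 TPM in shNT (2.27, limma adjusted p = 1.0e-05, rescaled 1.68). USP9X, a deubiquitinase that stabilises MCL1, stood at 3.92 and 5.08 TPM in shGLUD1, against 0.81 and 0.98 TPM in shNT (1.53, limma adjusted p = 0.00039, rescaled 1.10). Genes with opposite roles in MCL1 stability thus rose together. CDC20, a mitotic cofactor of the anaphase-promoting complex, rose by 1.34 (limma adjusted p = 1.4e-05, rescaled 0.68). HUWE1 and USP9X have long transcripts, and with length and GC trends removed their log2 fold changes were 1.91 and 1.23.

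**Figure D5:**
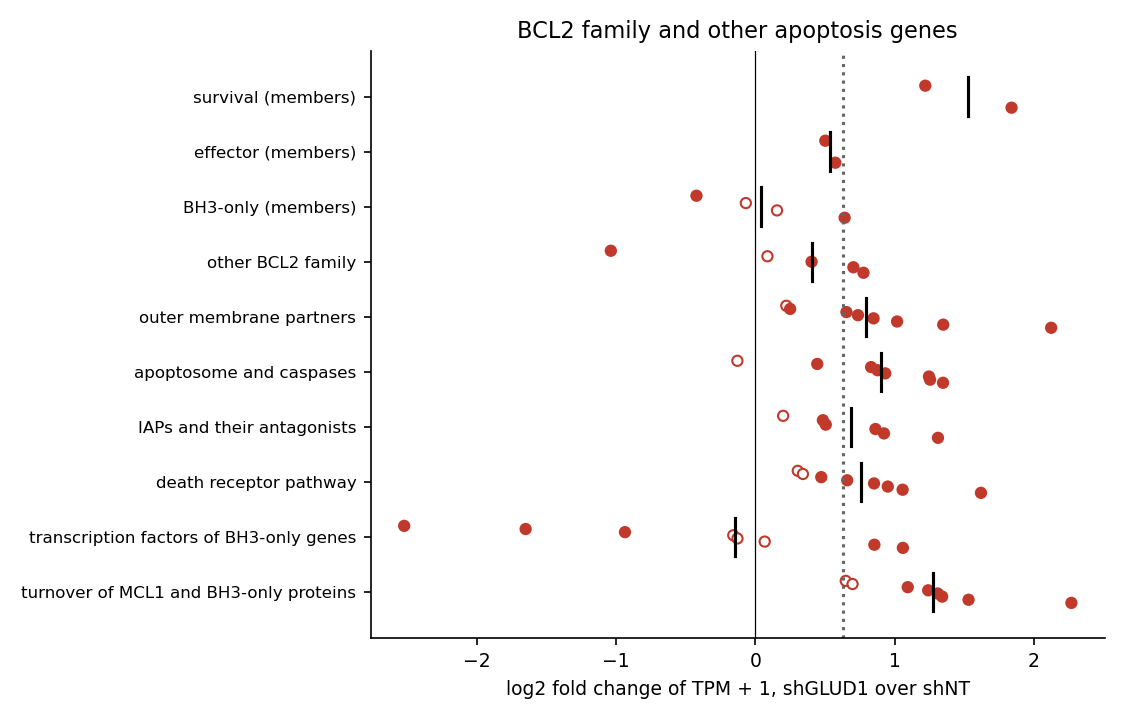
Log2 fold change of TPM + 1, shGLUD1 over shNT (horizontal axis), of the tested genes of each list. Filled points passed the limma test (adjusted p under 0.05), open points did not, black bars are list medians and the dotted line is the median of all genes (0.63). The tested survival genes had a median of 1.53 and the tested BH3-only members one of 0.04.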

How the data were processed

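Per the labels' protocols, the TruSeq V2 kit was used on 1 µg of RNA per library. The authors deposited 1 table of TPM. The submitters' processing notes name Bowtie 0.12.2 and 2 builds, hg38 and mm8, with no role stated. The sources used here do not name the program that gave TPM or its annotation. TPM are scaled within a library, so a fall in abundant transcripts raises all others.

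Values were tested as log2(TPM + 1), a scale that understates the change of low genes, for genes averaging 1 TPM or more over the 4 libraries, with limma 3.58.1 in R 4.3.3 (variance trend, group as the only term, two-sided, Benjamini-Hochberg over 12524 genes). limma shares the spread across genes (prior degrees of freedom 8.80 at the median). The script was tested on simulated data that held no shift of the median gene between the groups. The shift seen in these libraries was thus not covered by that test. Coordinates, transcript lengths and GC content came from GENCODE 29 on GRCh38, matched by identifier (length for 97.9% of genes tested), and promoters from RefSeq. Alternatives were a pseudocount of 0.1 TPM, no filter, a minimum average of 5 TPM, median-ratio and quantile scaling, no variance trend, a replicate block, each library left out, and length and GC trends removed by loess. Named were the 10 genes, GLUD1 and, of each further list (62 genes in 7 lists), the genes past the threshold with the largest change, up to 3 per direction, of which some are not reported here. The 10 genes and all lists were chosen with earlier results of these data known. Tables and figures used Python 3.11.15, pandas 2.3.3 and matplotlib 3.10.9.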

Additional observations from a re-analysis of the deposited data

How the results depend on the processing

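Of the 8 members tested, BCL2L1 and MCL1 kept their calls in 12 of 12 alternatives, BAX in 11, BAK1 in 8, PMAIP1 in 7 and BBC3 in 6. Members called higher numbered 5 and lower 1; these were 2 and 2 after median-ratio rescaling, 3 higher under quantile normalization, 0 lower without a filter, without a variance trend or with length and GC trends removed, and 3 to 5 higher and 0 to 1 lower with each library left out. Directions turned after rescaling for BAX (-0.085), BAK1 (-0.13) and BCL2L11 (-0.22), under quantile normalization for BAK1 (-0.13), BBC3 (-0.13) and BCL2L11 (-0.45), for BCL2L11 with length and GC trends removed (-0.18) or a library left out (-0.34 to 0.66), and for BID with a library left out (-0.24 to 0.11). The cause was not tested.

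The other lists had 36 higher and 4 lower, against 16 and 11 rescaled, 14 and 8 under quantile normalization, and 29 to 40 and 3 to 5 with each library left out. All genes had 7105 higher and 973 lower, against 3471 and 3102 rescaled, 2938 and 2764 under quantile normalization, 4676 higher at a mean of at least 5 TPM, where fewer genes were tested, and 5543 to 7103 and 661 to 960 with each library left out. GLUD1, not called on TPM, was called lower when rescaled (-0.74, limma adjusted p = 0.0043) and under quantile normalization (-0.75, limma adjusted p = 0.0076), and was at -0.37 to 0.15 with each library left out. Of the 13 ratios, that of BAX to BAK1 changed direction with a library left out (-0.045 to 0.14). A fit with the replicate number as a block gave 7395 higher and 1061 lower and changed no member's call. Same-numbered libraries deviated together with r = 0.039, so the numbers do not show pairing. Depth is unknown, so no floor can be set for BCL2 or BIK, and a fit that leaves out a library assumes that the lone one varies like the other group.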

Other observations

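Downstream of the mitochondrial step, most genes of the apoptosome and caspase list rose on TPM, where 56.7% of all genes rose and 7.77% fell. After rescaling, 27.7% of all genes were higher and 24.8% lower, and the counts of each list below stand against these shares. Of 9 genes of the apoptosome and caspase list, 8 were tested, of which 7 rose and 1 did not pass; after rescaling 3 were higher and 1 was lower. Their median log2 fold change was 0.90 (0.33 rescaled), against 0.63 (0.08) for all genes. CASP10, an initiator caspase of death receptors, stood at 4.06 and 5.07 TPM in shGLUD1, against 1.36 and 1.01 TPM in shNT (1.35, limma adjusted p = 0.00085, rescaled 0.89). CASP2, another initiator, rose by 1.25 (limma adjusted p = 0.0013, rescaled 0.89). Inhibitor of apoptosis genes and their antagonists gave 5 higher of 6 tested on TPM and 1 rescaled, BIRC3, which encodes the ubiquitin ligase cIAP2 (1.31, limma adjusted p = 0.0012, rescaled 0.90). BIRC6 and BIRC2 rose by 0.92 and 0.86, and neither passed when rescaled (0.52 and 0.29).

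Of 8 death receptor genes tested, 6 rose on TPM and 2 were higher after rescaling. On either scale limma called 0 lower (0 and 1 at an unadjusted p under 0.05), and their median log2 fold change was 0.76 (0.22 rescaled), against 0.63 (0.08) for all genes. The share higher after rescaling was near that of all genes. TNFRSF1A, the main receptor for TNF, stood at 45.0 and 53.2 TPM in shGLUD1, against 15.5 and 15.0 TPM in shNT (1.62, limma adjusted p = 1.3e-05, rescaled 0.98). FADD, the adaptor of death receptors, stood at 63.1 and 71.8 TPM in shGLUD1, against 32.6 and 31.1 TPM in shNT (1.06, limma adjusted p = 6.1e-05, rescaled 0.41). FAS rose on TPM (0.95, limma adjusted p = 0.0092, rescaled 0.45, not passed). Among 8 genes of membrane proteins listed as partners of the BCL2 family, 7 rose on TPM. Rescaled, 3 were higher and 2 lower, BCAP31 (-0.41, limma adjusted p = 0.0183) and TMBIM6 (-0.44, limma adjusted p = 0.0113), both named after their values were seen. BNIP3L, a mitophagy receptor with a BH3-like region, stood at 22.9 and 33.8 TPM in shGLUD1, against 4.63 and 6.79 TPM in shNT (2.12, limma adjusted p = 3.3e-05, rescaled 1.52). VDAC1 and VDAC2, channels of the outer membrane, of which VDAC2 is known to hold BAK1, rose by 1.35 and 1.02 (limma adjusted p = 1.2e-05 and 9.8e-05, rescaled 0.69 and 0.36).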
